A study of Mus musculus with 6 samples.

Results

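Rab GTPases, SNAREs and Vps proteins direct the traffic of membrane between compartments of the cell, and their RNA was compared between the upper layers and the whole of the mouse ear epidermis. Members were the gene symbols that start with Rab, Vamp, Stx or Vps followed by a digit, together with Snap23, Snap25, Snap29 and Snap47, whose mean over the 6 libraries was at least 1 TPM (a length-scaled share of a library's reads, described below). Of 125 such names 109 were kept, among 11683 genes that reached that level and 20522 gene symbols in all. The mean level, over both groups, therefore chose the members, and the contrast between the groups did not. The 16 names left out lay under the limit, the nearest being Stx2 at a mean of 0.90 TPM and Stx1a at 0.725 TPM, and among the lowest kept were Vps37d at 1.21 TPM and Vamp1 at 1.21 TPM.

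All 6 libraries came from ear skin of female C57BL6/N mice aged 8 weeks that carry no stated mutation. The 3 ETA sheets are the upper epidermis, peeled away with the staphylococcal protease exfoliative toxin A, which cuts desmoglein 1, and the series describes them as holding SG1 and SG2 granular cells. The 3 epidermal sheets are the whole epidermis, freed from the dermis with dispase. The isolation solution went with the layer in every library, so the effects of layer and solution cannot be told apart. No label states whether different animals gave the sheets of a group, and a p-value therefore stands only against the spread among these libraries, which can be technical.

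Rab GTPases are molecular switches that, when bound to GTP, recruit effectors to one kind of membrane: Rab5 to early endosomes, Rab11 to recycling endosomes, Rab7 to late endosomes and lysosomes, Rab27 to secretory granules and melanosomes, and Rab1 and Rab2 to the ER and Golgi. SNAREs (the syntaxins, SNAPs and VAMPs) form the bundle that pulls a vesicle and its target membrane together, and the Vps genes encode coats, tethers and sorting complexes first found in yeast vacuole sorting. Granular keratinocytes use this machinery to build lamellar granules and to secrete their lipids and proteases into the spaces between cells, and loss of VPS33B, of its partner VIPAR or of SNAP29 disturbs the epidermal barrier.

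The layers were separated as labelled. Summed TPM of 7 granular keratinocyte markers was 127194 to 148218 in ETA sheets and 6579 to 9057 in epidermal sheets, and that of 7 basal keratinocyte markers was 146 to 279 in ETA sheets and 16944 to 19278 in epidermal sheets. TPM scales the reads per transcript length to a total of 1000000 in a library, so the sequencing depth is unknown and no counting error can be given. The median log2 fold change over all 11683 genes was -1.34, which corresponds to a ratio of 0.396 in TPM + 1. Log2 fold changes are ETA sheet minus epidermal sheet on log2(TPM + 1), which understates the change of low genes, and "called" means an adjusted p under 0.05 by limma over all 11683 genes. Each direction below is as deposited, and centred values are log2 fold changes after median centring, in which the log2 values of each library were shifted to a common median over the tested genes; this moved the median of all genes to 0.16. ETA sheet replicate 2 listed 209 genes of at least 10 TPM on average at exactly 0, against 12 to 30 in the other 5 libraries. The members included 9 that stood at 0 in it, so a value of 0 there may be a failed estimate. In 4 of the 6 libraries the sheet name or number in the column header differed from the title of the sample of that library number; groups followed the titles, and grouping by the headers called 0 genes in limma, with 87 at an unadjusted p under 0.05. In whole sheets of tissue, fewer cells of a type and less RNA per cell cannot be told apart.

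Of the 109 members, 9 were called higher in ETA sheets (8.26%), where 10.1% of all genes tested were. Lower calls numbered 67 (61.5%), where 63.6% of all genes were called lower, and 33 members were not called. Both shares lie near those of all genes. After median centring the counts were 45 called higher (41.3%, against 29.1% of all genes) and 13 called lower (11.9%, against 18.8%), and after trimmed-mean scaling they were 44 higher (25.5% of all genes) and 14 lower (23.7% of all genes). The 3 values of the groups did not overlap for 11 members that were higher in ETA sheets (10.1%, against 10.9% of all genes) and for 73 that were lower (67.0%, against 66.0%). The median log2 fold change of the members was -1.01, and 74 of them lay above the median gene. Of the members 10 were under 1 TPM in the ETA sheet mean and 1, Rab3b, in the epidermal sheet mean, so these 11 passed the filter through the group in which they were higher. Of the other 98, 8 were called higher (10.8% of such genes) and 59 lower (63.4% of such genes). Counts of calls in the roles and lists below stand against the same shares of all genes, 10.1% higher and 63.6% lower as deposited and 29.1% higher and 18.8% lower after centring. The plot of log2 fold change by role shows the 9 risers spread over 6 of the 17 roles.

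**Figure D1:**
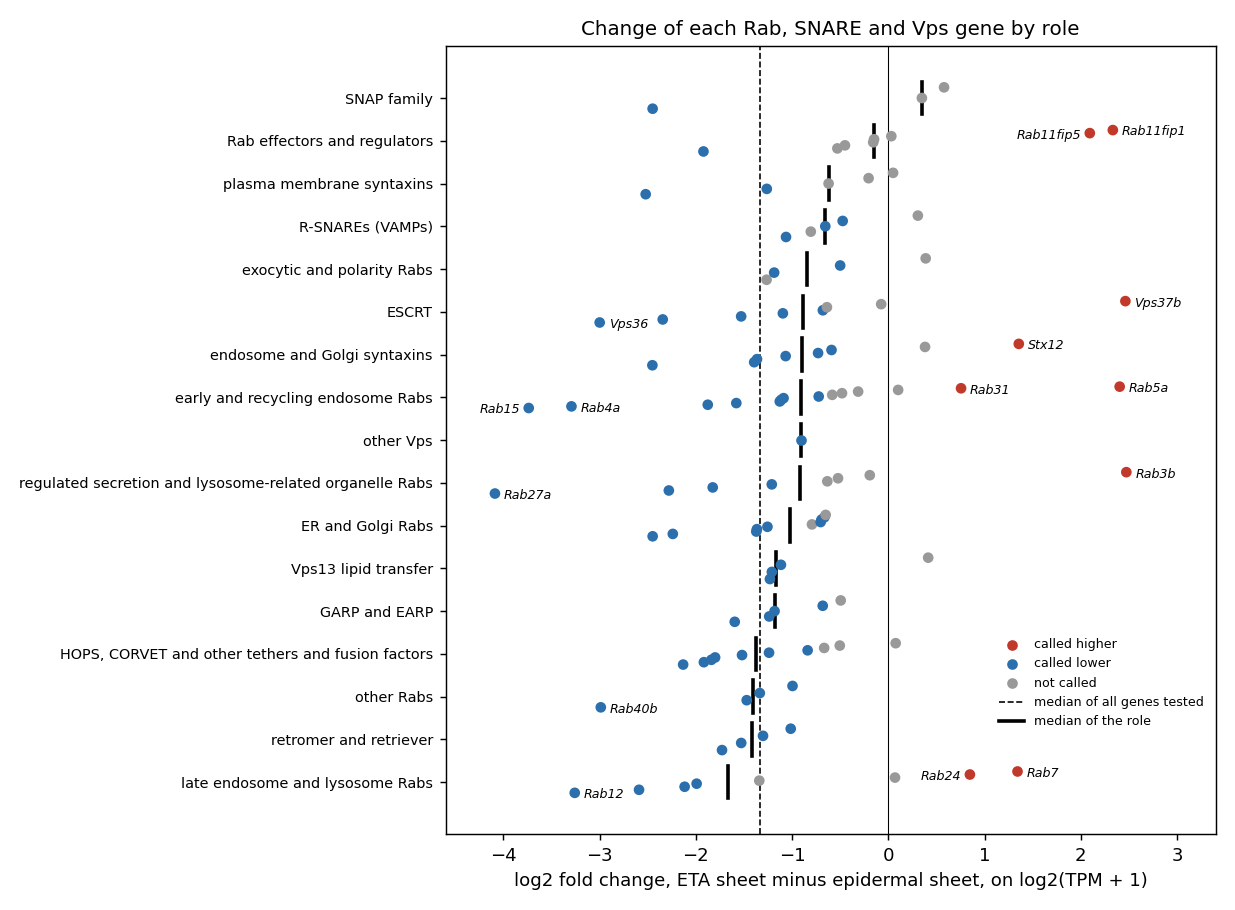
Log2 fold change (ETA sheet minus epidermal sheet, on log2(TPM + 1)) of each of the 109 genes, 1 point a gene, in 17 roles ordered by their median. Red points were called higher, blue lower and grey not called by limma; the dashed line is the median of all genes tested at -1.34, and the points run from Rab27a at -4.09 to Rab3b at 2.47.

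All 9 genes called higher as deposited were also called higher after median centring (centred values of 2.25 to 3.97) and after trimmed-mean scaling. They were Rab3b, Vps37b, Rab5a, Rab11fip1, Rab11fip5, Stx12, Rab7, Rab24 and Rab31. In the other direction, 13 genes were called lower on the deposited scale and again after median centring, with Rab27a, Rab15 and Rab4a at the far end. Of these, Rab15 and Rab4a averaged under 1 TPM in ETA sheets and passed the filter through the epidermal sheets. Another 13, among them Rab1a, Rab2a, Vamp3 and Vamp8, were called lower as deposited and higher after centring (11.9%, against 4.01% of all genes). The direction of these depends on the scale. The plot of values by library shows the 9 genes higher and the 13 lower on both scales.

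**Figure D2:**
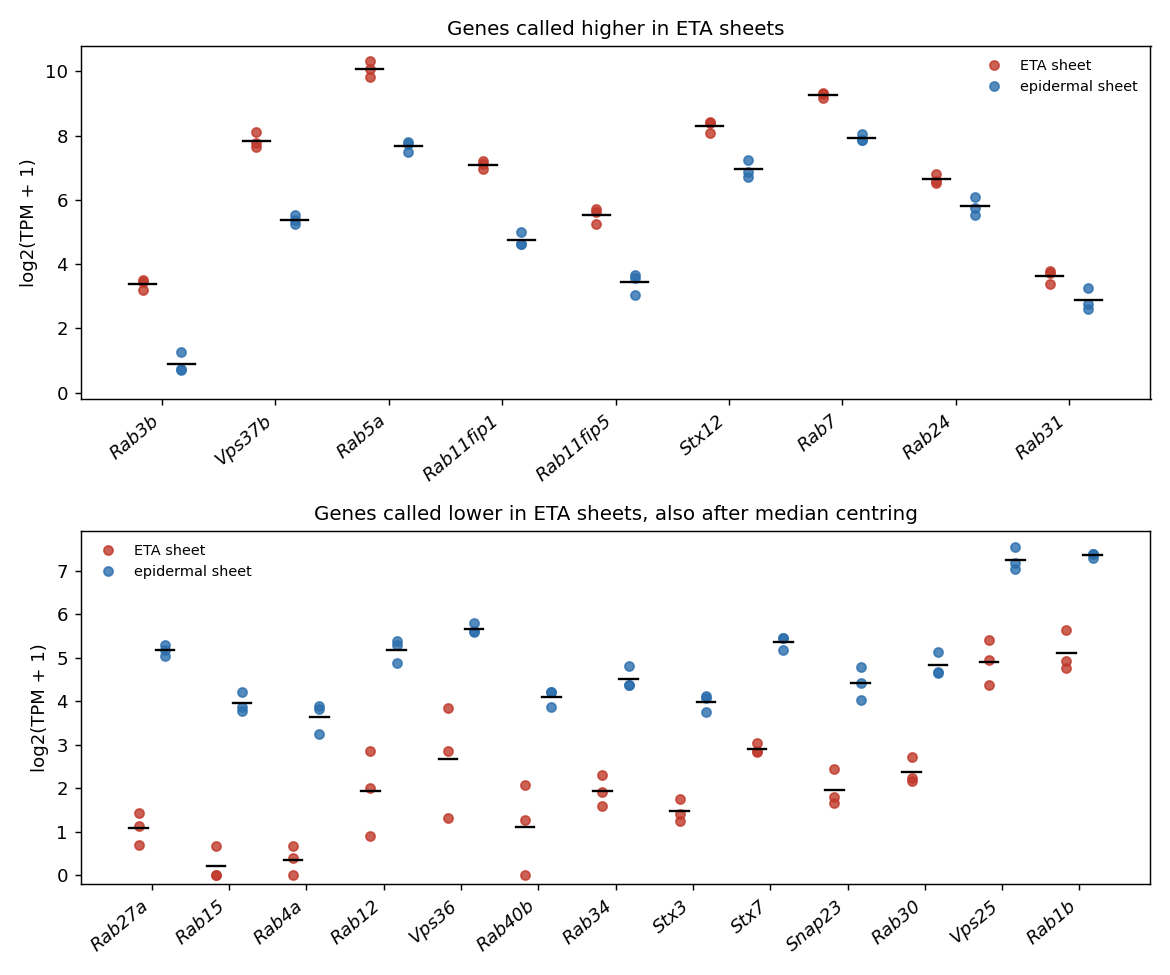
Level of each gene in each of the 6 libraries as log2(TPM + 1), 1 point a library, with ETA sheets (red) left of epidermal sheets (blue) and a bar at each group mean. The upper panel has the 9 genes called higher and the lower panel the 13 called lower as deposited and after median centring. In all 22 the groups do not overlap, and Rab3b, Rab4a and Rab15 passed the filter through the group in which they were higher.

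Among the Rabs of early and recycling endosomes, Rab5a and Rab31 were called higher, 8 of 14 were called lower and 4 were not called. Rab5a, which drives the fusion of early endosomes, had 910.0, 1269 and 1084 TPM in ETA sheets, against 179, 221 and 211 TPM in epidermal sheets. The lowest ETA sheet was several times the highest epidermal sheet. The mean was 5.34-fold that of epidermal sheets (log2 difference 2.404 ± 0.18 SE, limma adjusted p = 2.54e-05), and Rab5a was the most abundant of all members in ETA sheets. Its paralogues went the other way on the deposited scale. Rab5c had 109, 69.1 and 90.1 TPM in ETA sheets, against 199, 192 and 188 TPM in epidermal sheets (log2 difference -1.13, limma adjusted p = 0.00124). Rab5b averaged 42.9 ± 13.0 TPM in ETA sheets and 69.5 ± 6.83 TPM in epidermal sheets (log2 difference -0.72, limma adjusted p = 0.0284). After centring Rab5b was at 0.77 (limma adjusted p = 0.00854), called higher, and Rab5c at 0.37 (limma adjusted p = 0.0873), not called.

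The 250 bases upstream of the start of Rab5a are shown because the gene rose most in TPM of all members. Beside them stand those of Stx12, another riser, and of the first listed start of Rab27a, the member with the most negative log2 fold change. They are RefSeq sequences of build GRCm38.p6 (Rab5a at chr17:53478984-53479233 on the plus strand, Stx12 at chr4:132884459-132884708 on the minus strand, Rab27a at chr9:73044560-73044809 on the plus strand), a later build than the mm9 named in the submitters' processing notes. Capitals mark CACGTG, an E-box, and GGGCGG or its reverse complement CCGCCC, a GC box.
Rab5a: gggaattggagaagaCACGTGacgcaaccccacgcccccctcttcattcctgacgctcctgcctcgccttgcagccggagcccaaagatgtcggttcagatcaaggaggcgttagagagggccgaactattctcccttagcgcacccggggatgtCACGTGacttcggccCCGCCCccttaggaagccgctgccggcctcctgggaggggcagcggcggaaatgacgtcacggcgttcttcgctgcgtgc
Stx12: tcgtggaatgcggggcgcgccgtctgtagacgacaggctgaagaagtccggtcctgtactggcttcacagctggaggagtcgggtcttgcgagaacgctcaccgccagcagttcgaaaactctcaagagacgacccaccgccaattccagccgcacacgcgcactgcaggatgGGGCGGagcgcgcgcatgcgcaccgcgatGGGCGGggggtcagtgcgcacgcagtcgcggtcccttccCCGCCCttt
Rab27a: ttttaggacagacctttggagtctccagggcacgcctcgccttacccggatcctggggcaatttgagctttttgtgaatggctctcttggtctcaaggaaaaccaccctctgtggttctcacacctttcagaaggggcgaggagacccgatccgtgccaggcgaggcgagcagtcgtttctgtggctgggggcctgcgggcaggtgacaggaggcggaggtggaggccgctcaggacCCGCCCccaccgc
Rab5a holds CACGTG at 2 places and a GC box at 1, Stx12 holds 3 GC boxes and no CACGTG, and this Rab27a window holds 1 GC box and no CACGTG. Promoter windows of 250 bases before to 50 after the start were listed for 85 of the members, 107 windows in all. CACGTG, searched on both strands, stood in 12.1% of these and in 7.15% of 32851 windows of all genes. It stood in 2 of 8 windows of genes called higher (Rab5a and Rab24) and in 7 of 68 of genes called lower, a second Rab27a window included. The 8 windows came from 7 of the 9 genes called higher. Rab7 gave more than 1 of them, and none was listed for Rab11fip1 and Vps37b. GGGCGG stood in 68.2% of the members' windows and in 35.7% of all windows. Among the members it was in 7 of 8 windows of genes called higher and in 45 of 68 of genes called lower. The windows of all genes were not limited to genes that reached 1 TPM, as the members were. Shares of members and of all windows therefore do not compare like with like. The 2 motifs can overlap at their ends. Such matches describe the letters of these windows and no binding was measured.

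Rab31, which works between the Golgi and endosomes, had 12.7, 12.2 and 9.39 TPM in ETA sheets, against 5.12, 8.48 and 5.71 TPM in epidermal sheets. The groups did not overlap, but the difference was small (log2 difference 0.76 ± 0.28 SE, limma adjusted p = 0.0364). The call was lost without ETA sheet replicate 1 (limma adjusted p = 0.0827), ETA sheet replicate 2 (0.0765), epidermal sheet replicate 1 (0.12) or epidermal sheet replicate 3 (0.108). Rab11a, the Rab of recycling endosomes that also marks lamellar granules, averaged 157 ± 33.7 TPM in ETA sheets and 218 ± 31.6 TPM in epidermal sheets (SD, n = 3 each; log2 difference -0.48, limma adjusted p = 0.0735). It was not called as deposited, was called higher after centring at 1.01 (limma adjusted p = 0.00236), and was called lower as deposited without ETA sheet replicate 1 (log2 difference -0.60, limma adjusted p = 0.0398). Rab25, the epithelial member of the Rab11 group, had 171, 49.3 and 109 TPM in ETA sheets, against 284, 305 and 290.0 TPM in epidermal sheets. It fell as deposited (log2 difference -1.58, limma adjusted p = 0.00632), with the ETA sheets spread widely, and stood at -0.085 after centring.

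Rab4a and Rab15, which serve fast and pericentriolar recycling, were under 1 TPM in every ETA sheet. Rab4a had 0.589, 0 and 0.326 TPM in ETA sheets, against 13.1, 8.46 and 13.9 TPM in epidermal sheets, and Rab15 had 0.602, 0 and 0 TPM in ETA sheets, against 13.6, 12.8 and 17.7 TPM in epidermal sheets. Every epidermal sheet had at least 8.46 TPM of both genes, without overlap between the groups. Since the ETA sheets averaged under 1 TPM, both genes entered the members through the epidermal sheets. Rab4a was called lower (log2 difference -3.29, limma adjusted p = 8.76e-05; centred -1.797), and so was Rab15 (log2 difference -3.74, limma adjusted p = 4.59e-05; centred -2.24). Rab4b, the paralogue of Rab4a, kept 14.4, 8.37 and 8.77 TPM in ETA sheets and 46.9, 31.7 and 43.5 TPM in epidermal sheets. It fell as deposited (log2 difference -1.88, limma adjusted p = 4.56e-04) but not after centring (-0.38, limma adjusted p = 0.193).

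Of the 8 Rab effectors and regulators, 5 belong to the Rab11-interacting family, and the 2 called higher were among these. Rab11fip1, which links Rab11 to recycling of receptors to the surface, had 138, 122 and 148 TPM in ETA sheets, against 23.8, 31.2 and 23.9 TPM in epidermal sheets. The groups were far apart, with a mean 5.17-fold that of epidermal sheets (log2 difference 2.33 ± 0.196 SE, limma adjusted p = 3.61e-05). Rab11fip5 had 36.96, 48.05 and 50.98 TPM in ETA sheets, against 7.19, 10.95 and 11.7 TPM in epidermal sheets. Its mean was 4.56-fold that of epidermal sheets (log2 difference 2.09 ± 0.26 SE, limma adjusted p = 1.78e-04). Rab11fip2 went the other way, at 0.552, 0.939 and 0.152 TPM in ETA sheets and 3.25, 6.57 and 4.85 TPM in epidermal sheets, and was called lower as deposited (log2 difference -1.92, limma adjusted p = 0.00213; centred -0.43, not called). Rab11fip2 averaged under 1 TPM in ETA sheets, so it entered the members through the epidermal sheets. Rab11fip3 and Rab11fip4 were not called as deposited (log2 differences -0.45 and -0.16) and were called higher after centring (1.04 and 1.34). Rab3gap1 and Rab3gap2, the subunits of a Rab regulator of the ER, had log2 differences of -0.15 and 0.032 and were not called as deposited, and both were called higher after centring (1.35 and 1.53).

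The late endosome and lysosome Rabs split. Rab7, the Rab that takes late endosomes to fusion with lysosomes, had 572, 633 and 641 TPM in ETA sheets, against 232, 232 and 262 TPM in epidermal sheets. The lowest ETA sheet was well above the highest epidermal sheet, and the mean was 2.54-fold that of epidermal sheets (log2 difference 1.34 ± 0.15 SE, limma adjusted p = 1.30e-04). Rab24, an atypical Rab linked to autophagy, had 111, 95.6 and 90.8 TPM in ETA sheets, against 67.6, 52.7 and 45.2 TPM in epidermal sheets, without overlap (log2 difference 0.85 ± 0.21 SE, limma adjusted p = 0.00603). Rab9, which serves return from late endosomes to the Golgi, overlapped between groups, at 88.8, 56.97 and 90.8 TPM in ETA sheets and 56.2, 85.6 and 82.4 TPM in epidermal sheets (log2 difference 0.070, limma adjusted p = 0.813). It was called higher after centring (1.56, limma adjusted p = 8.63e-04).

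Another 4 of this role were called lower as deposited. Rab12, which takes recycling cargo to lysosomes, had 6.26, 0.888 and 3.04 TPM in ETA sheets, against 28.4, 41.2 and 38.1 TPM in epidermal sheets. Here every ETA sheet was under every epidermal sheet (log2 difference -3.26 ± 0.46 SE, limma adjusted p = 3.63e-04; centred -1.76). Rab34, which is known from lysosome positioning and cilia, had 3.94, 2.75 and 2.01 TPM in ETA sheets, against 27.2, 19.9 and 19.7 TPM in epidermal sheets (log2 difference -2.59 ± 0.29 SE, limma adjusted p = 1.17e-04; centred -1.095). Both were called lower on each scale. Rab7b averaged 5.95 ± 2.13 TPM in ETA sheets and 26.1 ± 4.34 TPM in epidermal sheets (log2 difference -1.99, limma adjusted p = 4.18e-04). Rab29 averaged 1.795 ± 0.681 TPM in ETA sheets and 11.01 ± 2.18 TPM in epidermal sheets (log2 difference -2.12, limma adjusted p = 4.47e-04). After centring neither was called (at -0.497 and -0.62), while trimmed-mean scaling called Rab29 lower. Rab20 varied as much within the groups as between them, at 23.7, 3.16 and 0.382 TPM in ETA sheets and 7.61, 28.03 and 8.21 TPM in epidermal sheets.

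Rab27a had the most negative log2 fold change of all members. This Rab holds melanosomes at the actin cortex of melanocytes and lytic granules at the membrane of cytotoxic T cells. It had 1.199, 0.615 and 1.71 TPM in ETA sheets, against 32.2, 38.3 and 35.2 TPM in epidermal sheets, and no ETA sheet reached 2 TPM. The mean was 29.98-fold lower in ETA sheets (log2 difference -4.09 ± 0.28 SE, limma adjusted p = 1.75e-05), and the gene was called lower after centring (-2.59, limma adjusted p = 1.61e-04). Its paralogue Rab27b had 27.05, 15.5 and 20.2 TPM in ETA sheets, against 19.1, 26.1 and 25.8 TPM in epidermal sheets. The groups overlapped and Rab27b was not called (log2 difference -0.19, limma adjusted p = 0.527), and after centring it was called higher (1.302, limma adjusted p = 9.23e-04).

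Markers of other cell types moved with Rab27a. Summed TPM of the melanocyte list was 1.85 to 4.996 in ETA sheets and 45.0 to 46.3 in epidermal sheets; 5 of 5 of its tested genes were called lower, and Mlana, Oca2 and Gpr143 were listed at 0 in all 3 ETA sheets. The T cell list summed to 8.89 to 11.6 TPM in ETA sheets and 169 to 178 TPM in epidermal sheets, with 7 of 7 called lower. The Langerhans cell list summed to 73.2 to 139 TPM in ETA sheets and 1275 to 1486 TPM in epidermal sheets, with 8 of 9 called lower and Lyz2 called higher. Their part in the values of Rab27a and of the other members that fell was not tested.

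The Rab3 group, which docks granules for regulated exocytosis, changed its make-up. Rab3b had 9.81, 8.198 and 10.3 TPM in ETA sheets, against 0.632, 1.41 and 0.667 TPM in epidermal sheets. All ETA sheets exceeded all epidermal sheets (log2 difference 2.47 ± 0.31 SE, limma adjusted p = 2.04e-04), and since the epidermal sheets averaged under 1 TPM, the gene entered the members through the ETA sheets. Rab3d, the most abundant of the group, had 61.02, 25.1 and 31.6 TPM in ETA sheets, against 125, 137 and 134 TPM in epidermal sheets. It fell as deposited (log2 difference -1.82, limma adjusted p = 9.08e-04), but not after centring (-0.33, limma adjusted p = 0.237). Rab3a had 2.001, 6.48 and 1.74 TPM in ETA sheets and 15.9, 18.8 and 20.1 TPM in epidermal sheets and fell as deposited (log2 difference -2.28, limma adjusted p = 0.00114; centred -0.79, not called). In epidermal sheet replicates 1 and 2 the TPM of Rab3a lay mostly in 1 transcript (15.8 and 18.3 TPM). In replicate 3 that transcript was at 0 and another held 20.1 TPM. Atoh1 of the Merkel cell list was at 0 in all ETA sheets, and the symbol Snap25 was at 0 in all 6 libraries. A Snap25 transcript without a symbol is described below. The Merkel cell list, whose cells also use Rab3 exocytosis, summed to 1.49 to 8.52 TPM in ETA sheets and 0 to 5.82 TPM in epidermal sheets. In epidermal sheet replicates 1 and 2 the list stood at 0.0936 and 0 TPM. Of its 7 genes only Krt8 was tested, and it was not called as deposited (log2 difference 1.54, limma adjusted p = 0.0503) but was called higher after centring (3.04). The part of the list in these values was not tested.

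Rab38 and Rab32 act in lysosome-related organelles such as melanosomes. Rab38 averaged 56.7 ± 15.4 TPM in ETA sheets and 80.4 ± 9.98 TPM in epidermal sheets (SD, n = 3 each) and was not called (log2 difference -0.52, limma adjusted p = 0.0686). Without ETA sheet replicate 1 it was called lower (log2 difference -0.73, limma adjusted p = 0.00779). After centring it was called higher (0.97, limma adjusted p = 0.00114). Rab32 had 7.26, 6.93 and 6.25 TPM in ETA sheets and 13.3, 17.4 and 21.4 TPM in epidermal sheets and was called lower as deposited (log2 difference -1.21, limma adjusted p = 0.00292), with 0.28 after centring, not called.

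None of the 10 ER and Golgi Rabs was called higher as deposited, and 8 were called lower (80.0%, where 63.6% of all genes were). After centring 3 were called higher and 2 lower. Rab1b, which with Rab1a serves the ER to Golgi step, had 49.2, 29.5 and 26.3 TPM in ETA sheets, against 165, 167 and 157 TPM in epidermal sheets. The mean was 4.65-fold lower in ETA sheets (log2 difference -2.24 ± 0.25 SE, limma adjusted p = 1.14e-04), and the gene was called lower after centring too (-0.74, limma adjusted p = 0.00694). Its paralogue Rab1a had 138, 105 and 125 TPM in ETA sheets, against 168, 212 and 204 TPM in epidermal sheets. Its call turned from lower as deposited (log2 difference -0.66, limma adjusted p = 0.0111) to higher after centring (0.83, limma adjusted p = 0.00272). Rab2a, which tethers at the Golgi, did likewise, at -0.69 as deposited (limma adjusted p = 0.00702) and 0.800 after centring. Rab30, another Golgi Rab, fell on both scales, with 3.696, 5.59 and 3.53 TPM in ETA sheets, against 34.3, 24.6 and 24.2 TPM in epidermal sheets (log2 difference -2.45, limma adjusted p = 1.13e-04; centred -0.95).

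Among the exocytic and polarity Rabs, Rab10, which carries cargo to the lateral surface, averaged 64.8 ± 18.1 TPM in ETA sheets and 145 ± 14.9 TPM in epidermal sheets (SD, n = 3 each; log2 difference -1.19, limma adjusted p = 0.00243) and was not called after centring (0.31). Rab8a averaged 39.1 ± 5.95 TPM in ETA sheets and 55.3 ± 3.22 TPM in epidermal sheets and was called lower as deposited (log2 difference -0.500, limma adjusted p = 0.0437) and higher after centring (0.99). Rab8b, its paralogue, was at 57.6, 31.2 and 49.8 TPM in ETA sheets and 25.8, 43.7 and 34.7 TPM in epidermal sheets. These values overlapped and it was not called as deposited (log2 difference 0.39, limma adjusted p = 0.253), and it was called higher after centring (1.88). Outside this role, among the other Rabs, stood Rab40b, which belongs to a group of Rabs that join ubiquitin ligases. Rab40b had 3.19, 0 and 1.42 TPM in ETA sheets, against 13.6, 17.6 and 17.6 TPM in epidermal sheets. It was lower on both scales (log2 difference -2.99, limma adjusted p = 8.27e-04; centred -1.49).

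Of 21 SNAREs, Stx12 alone was called higher as deposited, 12 were called lower and 8 were not called. Stx12, a syntaxin of recycling endosomes, had 272, 339 and 338 TPM in ETA sheets, against 104, 151 and 116 TPM in epidermal sheets. The groups did not overlap and the mean was 2.55-fold that of epidermal sheets (log2 difference 1.36 ± 0.199 SE, limma adjusted p = 4.35e-04). Stx7, the syntaxin of late endosome fusion, went the other way with 7.22, 6.27 and 6.14 TPM in ETA sheets, against 35.2, 43.2 and 42.6 TPM in epidermal sheets. It was called lower (log2 difference -2.45 ± 0.22 SE, limma adjusted p = 4.30e-05), after centring too (-0.96, limma adjusted p = 0.00324). Stx5a, the Golgi syntaxin, did not overlap between the groups, at 61.3, 66.7 and 73.6 TPM in ETA sheets and 56.1, 39.2 and 60.99 TPM in epidermal sheets. It was not called (log2 difference 0.38, limma adjusted p = 0.145), and was called higher after centring (1.88). Stx17, the syntaxin of autophagosomes, averaged 6.33 ± 0.343 TPM in ETA sheets and 11.3 ± 2.67 TPM in epidermal sheets. It was called lower as deposited (log2 difference -0.73, limma adjusted p = 0.0352) and higher after centring (0.76). The deposited call was lost without ETA sheet replicate 2 or 3 or epidermal sheet replicate 2 or 3.

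Syntaxins of the plasma membrane receive secretory vesicles. Stx3, known from the apical surface of epithelia, had 2.37, 1.68 and 1.36 TPM in ETA sheets, against 16.5, 12.6 and 15.97 TPM in epidermal sheets. It was lower in every ETA sheet (log2 difference -2.52 ± 0.28 SE, limma adjusted p = 1.17e-04) and on the centred scale (-1.03, limma adjusted p = 0.00862). Stx4a, the most abundant of them, had 59.3, 40.6 and 43.2 TPM in ETA sheets, against 126, 105 and 113 TPM in epidermal sheets. It fell as deposited (log2 difference -1.26 ± 0.21 SE, limma adjusted p = 7.54e-04), but not after centring (0.23, limma adjusted p = 0.262). Stx19 overlapped between the groups at 27.5, 9.86 and 26.8 TPM in ETA sheets and 29.05, 20.7 and 19.2 TPM in epidermal sheets, was not called as deposited (log2 difference -0.204, limma adjusted p = 0.648), and was called higher after centring (1.29).

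The SNAP proteins give helices to the SNARE bundle. Snap23, the SNAP of the plasma membrane, had 4.44, 2.48 and 2.17 TPM in ETA sheets, against 20.3, 15.4 and 26.8 TPM in epidermal sheets. Every ETA sheet was under every epidermal sheet (log2 difference -2.45 ± 0.32 SE, limma adjusted p = 2.61e-04; centred -0.95, called lower). Its TPM passed between 2 transcripts from library to library, and when each gene was read from its largest transcript alone the call was lost (log2 difference -1.45, limma adjusted p = 0.33). Snap29, the SNAP of endosomes and autophagosomes, had 31.9, 22.6 and 25.5 TPM in ETA sheets, against 15.9, 23.1 and 14.2 TPM in epidermal sheets. The groups overlapped in 1 library, and Snap29 was not called as deposited (log2 difference 0.58, limma adjusted p = 0.0694), was called without epidermal sheet replicate 2 (log2 difference 0.78, limma adjusted p = 0.0363), and was called higher after centring (2.07, limma adjusted p = 1.56e-04). Snap47 averaged 10.6 ± 1.42 TPM in ETA sheets and 8.13 ± 1.47 TPM in epidermal sheets (log2 difference 0.35, limma adjusted p = 0.238; centred 1.84, called higher).

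Vamp8, the vesicle SNARE of endosomes and of secretory granules in many glands, had 267, 241 and 266 TPM in ETA sheets, against 373, 377 and 328 TPM in epidermal sheets. The groups did not overlap, but the call as deposited (log2 difference -0.47 ± 0.16 SE, limma adjusted p = 0.0229) was lost without ETA sheet replicate 3 (limma adjusted p = 0.0527), epidermal sheet replicate 1 (0.0691) or epidermal sheet replicate 2 (0.0745). Centring turned it to higher (1.02, limma adjusted p = 0.0019). Vamp3, of recycling endosomes, averaged 73.6 ± 9.68 TPM in ETA sheets and 117 ± 20.5 TPM in epidermal sheets (SD, n = 3 each). Its call as deposited (log2 difference -0.65, limma adjusted p = 0.0182) was lost without epidermal sheet replicate 2 (limma adjusted p = 0.0698) or 3 (limma adjusted p = 0.0559), and it was called higher after centring (0.84). Vamp2, better known from synapses, had 108, 94.0 and 98.7 TPM in ETA sheets, against 67.3, 83.4 and 93.5 TPM in epidermal sheets. These did not overlap, the difference was not called (log2 difference 0.31, limma adjusted p = 0.171), and after centring it was called higher (1.802).

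Among the Vps genes the ESCRT complexes, which pinch vesicles into endosomes, held both extremes. Vps37b, a subunit of ESCRT-I, had 199, 274 and 219 TPM in ETA sheets, against 44.8, 40.5 and 36.96 TPM in epidermal sheets. The ETA sheets were 5.66-fold higher on average (log2 difference 2.46 ± 0.19 SE, limma adjusted p = 2.70e-05). Vps36 and Vps25, subunits of ESCRT-II, fell. Vps36 had 13.3, 1.51 and 6.25 TPM in ETA sheets, against 47.8, 47.6 and 54.8 TPM in epidermal sheets (log2 difference -2.998 ± 0.55 SE, limma adjusted p = 0.00135; centred -1.504). Vps25 had 41.6, 19.8 and 29.7 TPM in ETA sheets, against 131, 144 and 185 TPM in epidermal sheets (log2 difference -2.34 ± 0.28 SE, limma adjusted p = 1.69e-04; centred -0.85). Both were called lower on each scale, and the ETA sheets lay under all epidermal sheets. Vps4b, the ATPase that takes the complexes apart, had 70.2, 74.4 and 66.6 TPM in ETA sheets, against 57.5, 78.5 and 90.1 TPM in epidermal sheets. These overlapped without a call (log2 difference -0.074, limma adjusted p = 0.761), and centring gave a higher call (1.42). Its paralogue Vps4a averaged 21.3 ± 3.48 TPM in ETA sheets and 46.4 ± 1.96 TPM in epidermal sheets. It fell as deposited (log2 difference -1.095, limma adjusted p = 0.0015) and was not called after centring (0.399).

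All 4 subunits of retromer, the coat that returns receptors from endosomes, were called lower as deposited, where 63.6% of all genes were, and none was called after centring. Their median log2 fold change of -1.41 lay near that of all genes, -1.34. Vps35, its scaffold, had 38.8, 21.5 and 30.7 TPM in ETA sheets, against 71.7, 109 and 128 TPM in epidermal sheets (log2 difference -1.73 ± 0.29 SE, limma adjusted p = 9.00e-04; centred -0.23). Vps29 averaged 22.9 ± 2.93 TPM in ETA sheets and 68.2 ± 11.2 TPM in epidermal sheets (SD, n = 3 each; centred -0.034). Vps26a averaged 35.9 ± 10.1 TPM in ETA sheets and 71.9 ± 9.79 TPM in epidermal sheets (centred 0.48). Vps26b averaged 7.62 ± 3.31 TPM in ETA sheets and 19.7 ± 4.86 TPM in epidermal sheets (centred 0.19). Of the subunits Vps26a had the smallest log2 difference (-1.01).

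Of 10 HOPS, CORVET and other tether and fusion genes, 7 were called lower and none higher as deposited (70.0% lower, where 63.6% of all genes were). After centring Vps16 and Vps9d1, at -0.67 and -0.84 as deposited, were called higher (0.83 and 0.66) and none was called lower. Vps41, a HOPS subunit, had 15.6, 4.27 and 11.2 TPM in ETA sheets, against 35.2, 46.4 and 51.4 TPM in epidermal sheets (log2 difference -2.13 ± 0.41 SE, limma adjusted p = 0.00176; centred -0.64). Vps33b, the partner of VIPAR in lamellar granule formation, had 7.25, 2.26 and 4.25 TPM in ETA sheets, against 13.9, 20.5 and 17.6 TPM in epidermal sheets (log2 difference -1.799 ± 0.37 SE, limma adjusted p = 0.00242). Vps33a, its paralogue in HOPS, had 6.201, 4.08 and 3.10 TPM in ETA sheets, against 12.8, 14.6 and 15.4 TPM in epidermal sheets (log2 difference -1.52 ± 0.29 SE, limma adjusted p = 0.00166). No ETA sheet reached an epidermal sheet for either, and after centring they stood at -0.31 and -0.025, not called. Vps11 had 14.6, 11.02 and 3.501 TPM in ETA sheets, against 23.0 and 28.9 TPM in epidermal sheet replicates 1 and 2 and a listed 0 in epidermal sheet replicate 3. It was called neither way as deposited (log2 difference 0.077, limma adjusted p = 0.956); without epidermal sheet replicate 3 it was called lower (log2 difference -1.50, limma adjusted p = 0.0421). A transcript of Vps11 without a symbol in the table held 19.7 TPM in that replicate, and with names filled in by accession the gene was called lower (log2 difference -1.03, limma adjusted p = 0.00697).

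The other Vps genes were called lower as deposited in most cases. The GARP and EARP tethers of the Golgi and endosomes had 4 of 5 genes called lower. Vps54 fell most, at 18.8, 8.47 and 13.1 TPM in ETA sheets and 31.8, 45.6 and 46.8 TPM in epidermal sheets (log2 difference -1.595 ± 0.31 SE, limma adjusted p = 0.00187; centred -0.101, not called). The TPM of Vps54 passed between transcripts from library to library. Of the 4 Vps13 lipid transfer genes 3 were called lower as deposited. Vps13d, the fourth, was at 11.2, 6.54 and 8.72 TPM in ETA sheets and 5.13, 7.51 and 6.25 TPM in epidermal sheets. It overlapped without a call (log2 difference 0.41, limma adjusted p = 0.222), and was called higher after centring (1.91). Vps72, which despite its name is a subunit of chromatin remodelling complexes in the nucleus, averaged 30.3 ± 7.94 TPM in ETA sheets and 56.5 ± 2.66 TPM in epidermal sheets (log2 difference -0.91, limma adjusted p = 0.00632; centred 0.59, called higher).

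Shares within paralogue families do not depend on the scale of a library. In Rab27, Rab11, SNAP, Rab8, Vps13 and Vps33 the member that led on average differed between the groups. The Vps33 shares overlapped between the groups, and in epidermal sheets Vps13a led Vps13d narrowly (32.7% against 32.3% on average). In Rab5, Vps37 and Rab1, among others, the same member led on average in both, with a larger share in ETA sheets. The 21 families were drawn up after the values were seen, so their shares are given as a description with no test. Of Rab5 family TPM, Rab5a made up 84.7, 92.7 and 89.1% in the ETA sheets, against 40.5, 45.1 and 45.1% in the epidermal sheets. Of Vps37 TPM, Vps37b made up 83.04, 90.6 and 88.1% in the ETA sheets, against 45.8, 40.4 and 41.2% in the epidermal sheets. Of Rab27 TPM, Rab27b made up 95.8, 96.2 and 92.2% in the ETA sheets, against 37.2, 40.5 and 42.2% in the epidermal sheets. It was the main Rab27 gene in ETA sheets and the lesser one in epidermal sheets. In these families no ETA sheet came near an epidermal sheet.

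Shifts of the same kind but smaller were seen in the Rab1, Rab11 and SNAP families. Of Rab1 TPM, Rab1a made up 73.7, 78.1 and 82.6% in ETA sheets and 50.5, 55.9 and 56.6% in epidermal sheets. Of Rab11 and Rab25 TPM, Rab25 held 45.05, 27.1 and 36.4% in ETA sheets and 56.7, 52.6 and 53.7% in epidermal sheets. Of SNAP TPM, Snap29 made up 65.7, 65.6 and 67.3% in the ETA sheets, against 36.99, 47.9 and 28.9% in the epidermal sheets. Snap23 made up 9.17, 7.19 and 5.73% in ETA sheets and 47.4, 32.1 and 54.7% in epidermal sheets. Of the TPM of its family of 5, Rab11fip1 made up 65.4, 65.1 and 68.99% in the ETA sheets, against 43.3, 39.8 and 34.8% in the epidermal sheets. Of Rab3 TPM, Rab3b held 13.5, 20.6 and 23.6% in ETA sheets and 0.446, 0.895 and 0.432% in epidermal sheets. The shares of Rab2a, Rab6a, Vps26a, Vps33a and Vamp8 in their families overlapped between the groups.

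**Figure D3:**
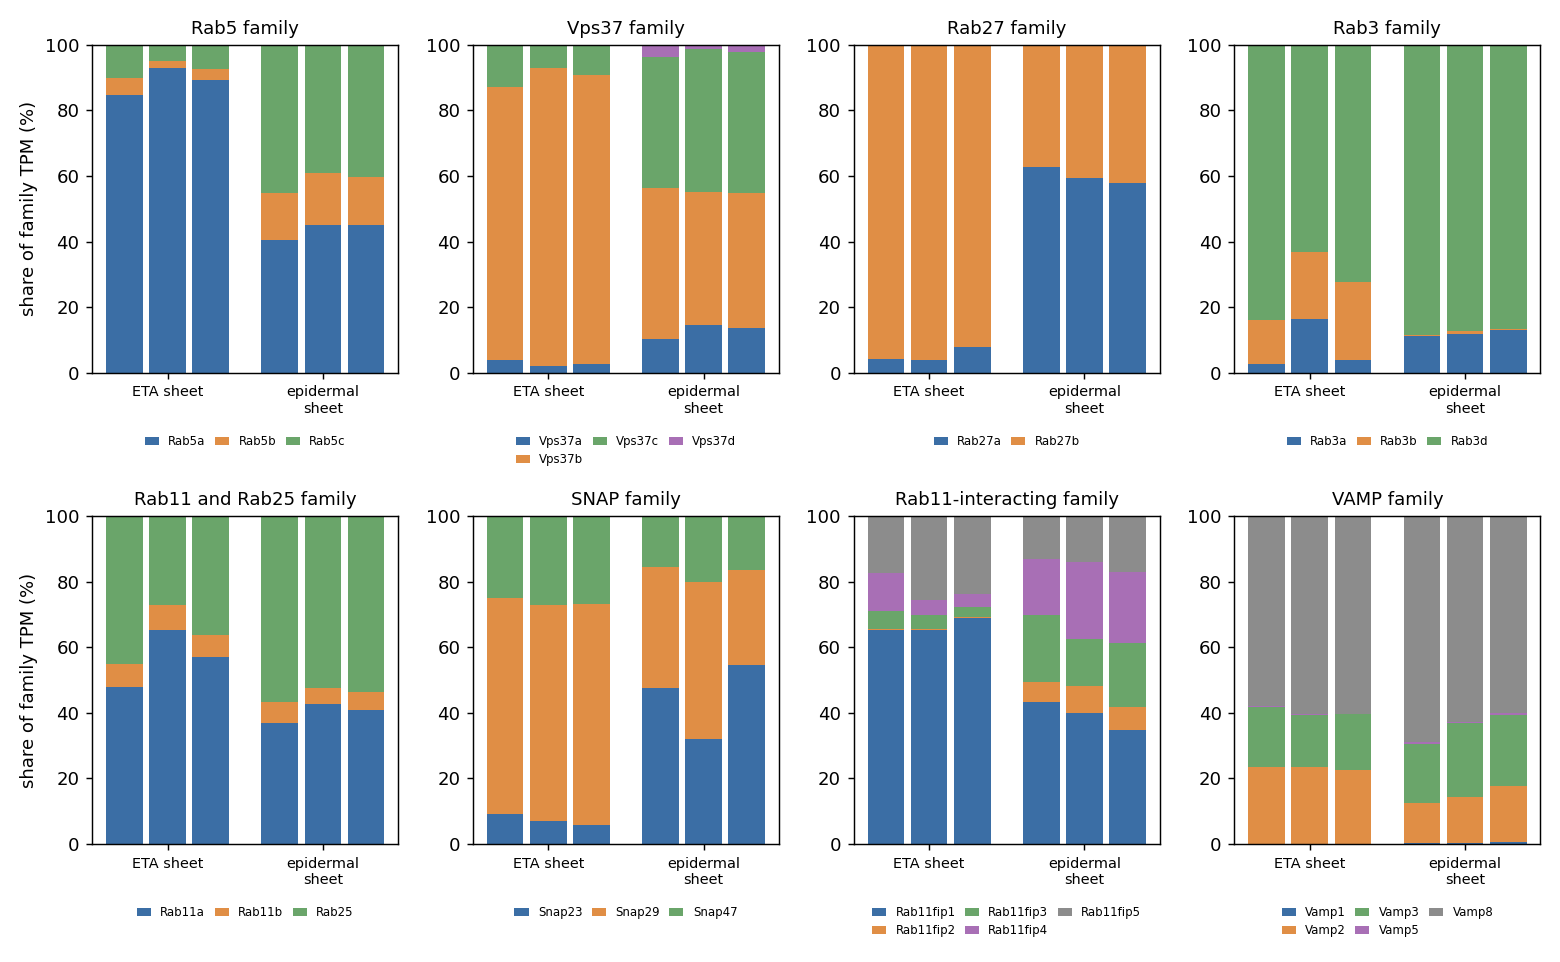
Share of each paralogue in the summed TPM of its family (%), 1 stacked bar a library, with the 3 ETA sheets left of the 3 epidermal sheets, in 8 families. Rab5a, Vps37b and Rab27b fill most of their families in ETA sheets (84.7% to 92.7%, 83.0% to 90.6% and 92.2% to 96.2%) and 37.2% to 45.8% of them in epidermal sheets.

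Although most members were called lower, their summed TPM differed little, at 5163 ± 252 TPM in ETA sheets and 5563 ± 354 TPM in epidermal sheets (SD, n = 3 each). The 9 genes called higher took 41.7, 56.9 and 50.4% of it in the ETA sheets, against 12.8, 12.8 and 12.6% in the epidermal sheets. The other 100 genes together averaged 2612 ± 524 TPM in ETA sheets and 4854 ± 311 TPM in epidermal sheets. The 9 were chosen by their change, so this division is a description. The share of Rab5a alone was 21.2% ± 4.502 in ETA sheets and 3.65% ± 0.1699 in epidermal sheets.

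Summed by role, the Rabs of late endosomes and lysosomes had 816 ± 17.8 TPM in ETA sheets and 482 ± 28.4 TPM in epidermal sheets, although 4 of their 8 genes were called lower, and Rab7 made up most of the sum. The early and recycling Rabs had 1731 ± 16.7 TPM in ETA sheets and 1384 ± 86.7 TPM in epidermal sheets. Rab5a alone gave 1087 TPM of this in ETA sheets and 204 TPM in epidermal sheets, and 8 of the 14 genes were called lower. The endosome and Golgi syntaxins had 439.9 ± 34.3 TPM in ETA sheets and 308 ± 27.8 TPM in epidermal sheets. Stx12 alone gave 316 TPM of this in ETA sheets and 124 TPM in epidermal sheets, and 6 of the 8 genes were called lower. In ETA sheets both sums thus rested largely on 1 gene. The effectors and regulators had 244 ± 19.3 TPM in ETA sheets and 113 ± 15.99 TPM in epidermal sheets. Retromer had 96.7 ± 24.3 TPM in ETA sheets and 263 ± 30.5 TPM in epidermal sheets. The HOPS and CORVET group had 70.9 ± 27.3 TPM in ETA sheets and 182 ± 17.8 TPM in epidermal sheets. The Rabs of regulated secretion had 139 ± 40.2 TPM in ETA sheets and 309.6 ± 27.8 TPM in epidermal sheets. ESCRT sums overlapped, at 393 ± 21.8 TPM in ETA sheets and 421 ± 40.8 TPM in epidermal sheets, with Vps37b higher and Vps25 and Vps36 lower in ETA sheets.

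**Figure D4:**
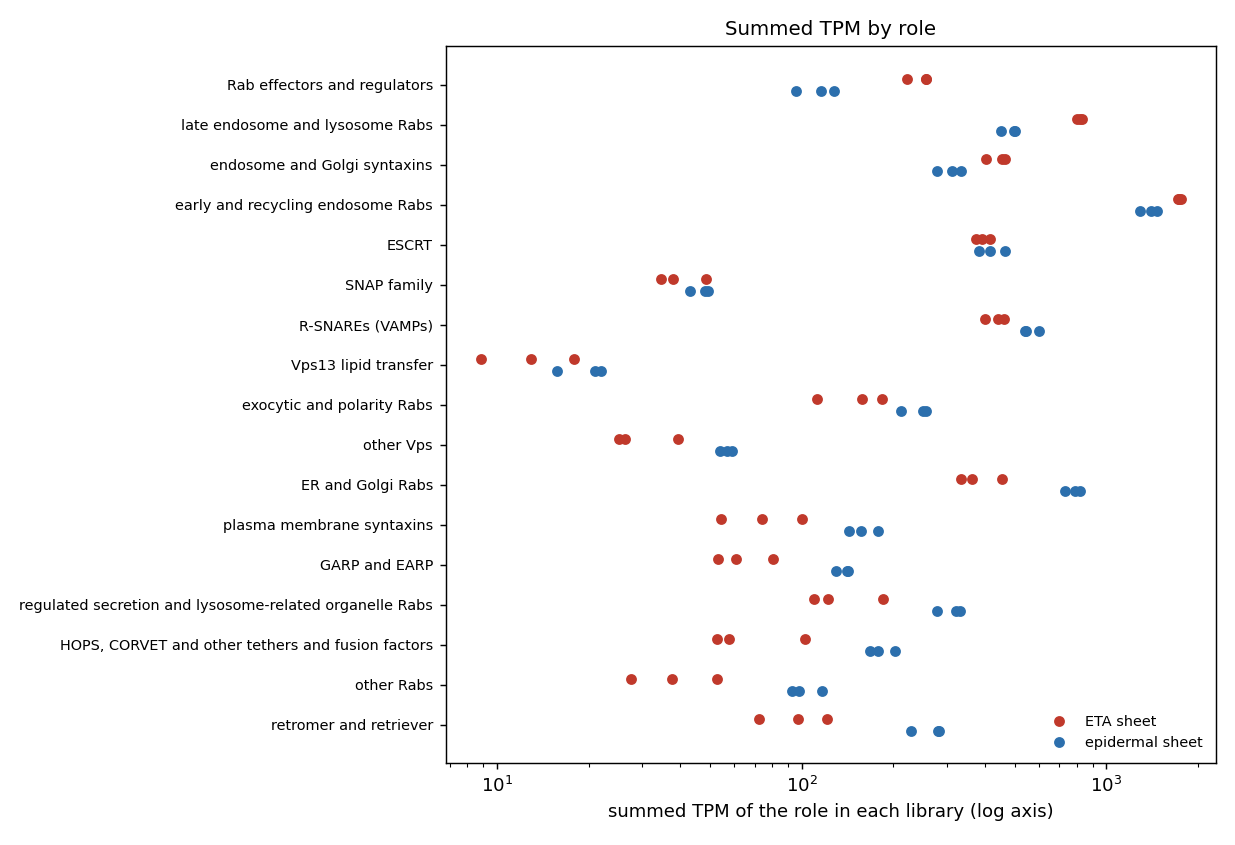
Summed TPM of each of the 17 roles in each library on a log axis, 1 point a library, ETA sheets in red above epidermal sheets in blue, roles ordered by the ratio of means. Effectors, late endosome Rabs, endosome syntaxins and early endosome Rabs lie higher in all ETA sheets, and retromer, with 96.7 TPM on average in ETA sheets and 263 TPM in epidermal sheets, is at the bottom.

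Partners of the members that carry other names were read from 6 lists. Of 31 tested Rab cycle partners (exchange factors, GTPase activating proteins, chaperones and effectors) 4 were called higher (12.9%, against 10.1% of all genes) and 18 lower (58.1%, against 63.6%). After centring 13 were called higher and 2 lower. Plekhm1, an effector that joins Rab7 to HOPS, had 54.8, 74.8 and 57.3 TPM in ETA sheets, against 7.802, 9.198 and 10.5 TPM in epidermal sheets, a 6.79-fold higher mean in ETA sheets (log2 difference 2.63 ± 0.23 SE, limma adjusted p = 3.86e-05). Rabgef1, an exchange factor for Rab5 named after its values were seen, had 144, 148 and 143 TPM in ETA sheets, against 56.9, 72.4 and 54.1 TPM in epidermal sheets (log2 difference 1.24 ± 0.18 SE, limma adjusted p = 4.32e-04). Both rose on the centred scale as well (4.13 and 2.74). Rin1, another Rab5 exchange factor, was listed at 0.187, 0 and 0 TPM in ETA sheets and 11.6, 10.8 and 16.3 TPM in epidermal sheets and was called lower on both scales (log2 difference -3.697, limma adjusted p = 3.86e-05; centred -2.203). Rabac1, a Rab acceptor and the most abundant of the list, fell as deposited (log2 difference -1.08, limma adjusted p = 0.00335) and was not called after centring (0.42).

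Of 20 ESCRT genes with other names 1 was called higher and 11 lower as deposited (55.0% lower, against 63.6% of all genes), and 14 higher and 0 lower by limma after centring. That called higher as deposited was Chmp4c, a filament subunit of ESCRT-III, with 158, 269 and 199 TPM in ETA sheets, against 19.9, 19.3 and 19.7 TPM in epidermal sheets. The ETA sheets were 10.6-fold higher on average (log2 difference 3.31 ± 0.23 SE, limma adjusted p = 1.66e-05; centred 4.81), a larger ratio than for Vps37b. Chmp2a, the most abundant of the list, overlapped at 386, 339 and 409.6 TPM in ETA sheets and 375, 362 and 388 TPM in epidermal sheets (log2 difference 0.0093, limma adjusted p = 0.959; centred 1.503, called higher). Stam was listed at 5.67, 0 and 5.29 TPM in ETA sheets and 10.4, 14.7 and 16.1 TPM in epidermal sheets (log2 difference -2.06, limma adjusted p = 0.0235; centred -0.57, not called).

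Docking factors had 2 of 9 tested genes called higher and 3 lower as deposited, and 6 higher and 0 lower by limma after centring. Myo5b, a motor that binds Rab11 and its effectors, had 28.8, 26.2 and 26.4 TPM in ETA sheets, against 8.71, 11.3 and 7.08 TPM in epidermal sheets (log2 difference 1.51 ± 0.24 SE, limma adjusted p = 6.58e-04; centred 3.001, called higher). Sytl1, which binds Rab27, had 101, 66.2 and 69.1 TPM in ETA sheets, against 172, 153 and 159.9 TPM in epidermal sheets and fell as deposited (log2 difference -1.05, limma adjusted p = 0.00199), with 0.44 after centring, called higher. The exocyst, the tether of vesicles at the plasma membrane, had 8 of 9 genes called lower as deposited (88.9%, against 63.6% of all genes), and 2 higher and 0 lower by limma after centring. Its median log2 fold change was -1.43, near that of all genes. Its most abundant gene Exoc5 averaged 11.2 ± 2.88 TPM in ETA sheets and 29.96 ± 4.62 TPM in epidermal sheets (log2 difference -1.36, limma adjusted p = 0.00179; centred 0.13), and Exoc2 fell most (log2 difference -1.98, limma adjusted p = 8.14e-04; centred -0.49).

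SNARE partners had 0 of 23 tested genes called higher and 14 lower by limma as deposited, and 8 higher and 0 lower after centring. Use1, a SNARE of return to the ER, was the most abundant (log2 difference -1.44, limma adjusted p = 3.94e-04; centred 0.053, not called), and Txlna, a syntaxin binder, fell most (log2 difference -1.85, limma adjusted p = 7.92e-04; centred -0.36, not called). Of 25 adaptor, coat and VIPAR complex genes 20 were called lower and 0 higher by limma as deposited (80.0% lower, against 63.6% of all genes). After centring 12 were called higher (48.0%, against 29.1% of all genes) and 1 lower. The lower one was Ap1m1, a subunit of the AP-1 adaptor, with 0.939, 1.704 and 1.25 TPM in ETA sheets, against 14.1, 20.2 and 12.2 TPM in epidermal sheets (log2 difference -2.83 ± 0.31 SE, limma adjusted p = 1.02e-04; centred -1.33). Cltb, a clathrin light chain and the most abundant of that list, was at 489, 355 and 461 TPM in ETA sheets and 339.5, 345 and 300.3 TPM in epidermal sheets. It had no call as deposited (log2 difference 0.39, limma adjusted p = 0.0758) and was called higher after centring (1.89).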

How the data were processed

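RNA was sequenced from 3 ETA sheets and 3 epidermal sheets as directional libraries with paired reads of 25 bp, per the labels' protocols. The authors deposited TPM per transcript for 37903 transcripts, 7951 of them without a gene symbol. The submitters' processing notes name Salmon, Bowtie2 and build mm9, with no version. The gene annotation is not given in the sources used here. Columns were matched to samples by library number and grouped by sample title.

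TPM was summed per symbol, and limma 3.58.1 (R 4.3.3, empirical Bayes with a variance trend) was run on log2(TPM + 1) of the 11683 genes whose mean reached 1 TPM, with Benjamini-Hochberg adjustment over all of them. The fit was checked on simulated data. Folds are ratios of mean TPM. Sums, shares and figures were made in Python 3.11.15 with pandas 2.3.3, numpy 2.4.6 and matplotlib 3.10.9. Of the members, 74 had 1 transcript in the table and 35 had several, whose TPM the authors' tool divided among them.

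Members, roles, lists and alternatives were chosen with earlier results of these data known. Named by rule were the most abundant member of each role, all members called higher and a set linked to lamellar granules or secretion. So was the largest fall per role among genes with at least 10 TPM in epidermal sheets and no overlap. This gave 40 members. Per partner list, the most abundant gene and the largest called change in each direction were named as well. Others, including Rab1b, Rab34, Rab4a, Vps25, Vps11, Rab3a, Vamp2, Rab8b, Stx19 and Rabgef1, were added after their values were seen. Marker lists were those of granular and basal keratinocytes, melanocytes, T cells, Langerhans cells and Merkel cells.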

Additional observations from a re-analysis of the deposited data

How the results depend on the processing

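The scale decided most directions. Trimmed-mean scaling gave 44 members called higher, 14 called lower and a median log2 fold change of 0.37, median centring 45, 13 and 0.48, and rescaling without the 100 most abundant genes 17, 43 and -0.58. Grouping by header names gave 0 higher, 0 lower (87 of all genes at an unadjusted limma p under 0.05) and -0.53. Other pseudocounts, filters, no variance trend, the largest transcript, and names filled in by accession (added after the data were seen) gave 8 or 9 higher and 54 to 67 lower, with medians of -1.13 to -0.87. The lowest were 54 lower of 108 members tested on the largest transcript and 58 of 94 with a mean of at least 5 TPM. Leaving out 1 library gave 8 to 10 higher, 54 to 72 lower and medians of -1.16 to -0.82.

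Deviations from the group means correlated at 0.0194, -0.0303 and -0.0445 between same-numbered libraries, and at -0.022 to 0.0485 between the others. Such values cannot tell whether same-numbered sheets came from the same animal. With the replicate number as a block, 8 members were called higher and 58 lower, and Rab31 (limma adjusted p = 0.073), Stx17 (0.0839) and Vamp8 (0.0686) lost their calls.

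Median centring reversed the sign of 60 of the 109 members. Of the 64 members and partners recomputed one by one under all settings, it reversed Rab10 (0.31), Rab11a (1.01), Rab1a (0.83), Rab27b (1.302), Rab32 (0.28), Rab38 (0.97), Rab40c (0.50), Stx17 (0.76), Stx4a (0.23), Stx19 (1.29), Vamp3 (0.84), Vamp8 (1.02), Vps4b (1.42), Vps72 (0.59), Rabac1 (0.42), Use1 (0.053), Sytl1 (0.44) and Exoc5 (0.13). Under trimmed-mean scaling the values in the same order were 0.31, 1.03, 0.84, 1.25, 0.17, 0.97, 0.47, 0.62, 0.23, 1.23, 0.84, 1.04, 1.42, 0.57, 0.43, 0.065, 0.45 and 0.068. Without the 100 most abundant genes they reversed for Rab11a (0.059), Rab27b (0.33), Rab38 (0.012), Stx19 (0.31), Vamp8 (0.067) and Vps4b (0.46). Header names reversed Rab24 (-0.0028), Snap29 (-0.16), Vps13d (-0.088), Vps4b (0.16), Vps11 (-2.56), Rab8b (-0.087) and Cltb (-0.074). The largest transcript reversed Vps13d (-0.27), and names by accession reversed Vps11 (-1.03). On the largest transcript 5 of the 64 genes lost their calls, Snap23 among them.

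Leaving out 1 library moved the value of 8 members across 0, Rab9 and Rab3gap2 among them. Of the same 64 genes it reversed Vps11 (without ETA sheet replicate 1 at -0.28, ETA sheet replicate 2 at -0.097 and epidermal sheet replicate 3 at -1.504; range -1.504 to 0.95), Chmp2a (without ETA sheet replicate 1, ETA sheet replicate 3 or epidermal sheet replicate 2; range -0.050 to 0.085), Stx19 (without ETA sheet replicate 2; range -0.44 to 0.25) and Vps4b (without epidermal sheet replicate 3; range -0.25 to 0.066). Of these only Vps11 was called, without epidermal sheet replicate 3. Family shares were recomputed without 1 library, on the largest transcript and with names filled in by accession, 168 in all. Of these, 163 moved by no more than the spread between replicates and 4 moved further. That of Vps33a changed sign without ETA sheet replicate 2 (range without 1 library -1.28 to 9.81 percentage points, ETA minus epidermal sheets). Depth is unknown, so levels near 1 TPM and values of 0 carry an error that cannot be given. For results without a named value the cause was not tested.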

Other observations

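Several trafficking genes stand in the table only, or mostly, as transcripts without a symbol and were named by accession, outside the 109 genes and with no test. Vamp7, a vesicle SNARE of late endosomes and secretory lysosomes, had 9.21, 0 and 7.26 TPM in its main transcript in the ETA sheets, against 14.5, 21.5 and 20.2 TPM in the epidermal sheets. Its ETA sheet replicate 2, listed at 0 there, had 5.55 TPM in another Vamp7 transcript that was at 0 in the other 5 libraries. Vamp4, a SNARE between the Golgi and endosomes, had 4.20, 1.10 and 3.38 TPM in its main transcript in the ETA sheets, against 11.5, 12.3 and 9.66 TPM in the epidermal sheets. A Snap25 transcript without a symbol had 2.09, 0 and 0.211 TPM in the ETA sheets and 44.8 TPM in epidermal sheet replicate 3, and was at 0 in the other 2 epidermal sheets. Snap25 is the SNAP of neurons and endocrine cells, and the signal in 1 library of 6 was not examined further.

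Across the 109 members the level and the change went together weakly: Spearman's rho of mean TPM with log2 fold change was 0.254, and -0.00281 over all 11683 genes. These are descriptions across genes that share the 6 libraries. The 31 members with a mean of at least 50 TPM had a median log2 fold change of -0.65, and all 2179 genes of that level had -0.93.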
